A study of Mus musculus with 35 samples.

Results

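The lysosome was followed through 49 genes in sorted mouse liver macrophages. The set was chosen by name. It holds 9 glycosidases, 9 genes of lipid handling, legumain, tripeptidyl peptidase 1 and progranulin, 10 genes of the lysosomal membrane, the 3 transcription factors Tfeb, Tfe3 and Mitf, and 15 genes of the vacuolar proton pump. Of 54735 gene symbols in the count tables, 13421 reached more than 1 count per 1000000 counts of a library (CPM) in at least 5 libraries, and all 49 lysosomal genes were among them. Every one of the 49 passed in all 35 libraries, the lowest single value being 11.0 CPM for Gla.

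C57Bl/6J mice received a standard diet (SD) or a western diet rich in fat and cholesterol, with sugar in the water (WD), for 12 or 24 weeks, and liver macrophages were sorted for bulk RNA sequencing. Resident Kupffer cells (ResKCs, CLEC4F+TIM4+) came from 7 SD and 5 WD libraries at 12 weeks and from 6 SD and 6 WD libraries at 24 weeks. At 24 weeks of WD, monocyte-derived Kupffer cells (moKCs, CLEC4F+TIM4-, 5 libraries) and CLEC4F- macrophages (CLEC4F-TIM4-, 6 libraries) were sorted too and have no SD counterpart here. The labels name these populations and the study's methods give the gates. Only males were used for the diets, and no lineage label marks origin in these libraries, so the gates alone stand for it here. In separate bone marrow chimeras with shielded livers, the study found cells of the CLEC4F+TIM4- and CLEC4F- gates to be chimeric. After 24 weeks a small part of the CLEC4F+TIM4+ cells was chimeric too. The titles of the 12-week WD libraries name a western diet while their diet field reads standard diet, and they were taken as WD. The study counts mice as replicates, but the labels tie no library to a mouse and do not say whether populations came from the same mice, so the tests treat the libraries as independent.

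The lysosome is the acidic compartment in which a macrophage degrades what it takes up, and a Kupffer cell clears large amounts of particles, red cells and lipoproteins from portal blood. Soluble hydrolases cut sugars, lipids and proteins, membrane proteins shield the limiting membrane and move the products out, and the V-ATPase, a rotary pump with a cytosolic V1 sector and a membrane V0 sector, drives protons in. TFEB, TFE3 and MITF bind E-box sequences in many lysosomal promoters. Their activity is set largely by where in the cell the protein sits, which a transcript level does not show.

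Bases just upstream of the start site were read for this E-box, CACGTG, which reads the same on both strands. Windows of 300 bases, from 250 before to 50 after the start, were found in RefSeq (GRCm38.p6) for 43 of the 49 genes. The E-box lay in the window of 12 of the 43 genes (27.9%), against 8.09% of 27025 genes with a window and 11.6% of the 9964 of them that passed the expression filter. In each of the 12 genes at least 1 E-box was part of CACGTGA or its reverse complement TCACGTG, a longer match that contains the E-box and lay in 6.89% of the expressed genes. The stretches below show, for 10 genes, the E-boxes that lie before the RefSeq start site of the window, in capitals. These letters let the measured changes be read against a shared promoter motif. Several windows were found for 8 genes, and annotations place starts differently. Within the GENCODE M21 gene bounds lie the E-boxes of Cln3, Lgmn, Atp6v1a and Naglu and the second of Mcoln1.
Lamp1, chr8:13159080-13159160, plus strand: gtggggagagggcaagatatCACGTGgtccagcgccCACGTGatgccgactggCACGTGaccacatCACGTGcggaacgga
Mcoln1, chr8:3500428-3500499, plus strand: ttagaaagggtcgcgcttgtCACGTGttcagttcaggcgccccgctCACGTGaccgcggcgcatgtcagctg
Cln3, chr7:126583332-126583405, minus strand: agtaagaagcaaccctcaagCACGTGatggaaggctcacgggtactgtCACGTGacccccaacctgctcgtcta
Gla, chrX:134601174-134601252, minus strand: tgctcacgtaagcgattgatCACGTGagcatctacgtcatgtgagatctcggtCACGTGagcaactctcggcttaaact
Glb1, chr9:114401010-114401055, plus strand: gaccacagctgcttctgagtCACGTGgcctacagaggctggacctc
Naglu, chr11:101070001-101070046, plus strand: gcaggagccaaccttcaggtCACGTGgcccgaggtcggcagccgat
Gaa, chr11:119267803-119267848, plus strand: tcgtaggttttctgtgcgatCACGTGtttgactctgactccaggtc
Lgmn, chr12:102439116-102439161, minus strand: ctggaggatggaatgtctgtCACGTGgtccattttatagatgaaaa
Atp6v0b, chr4:117887330-117887385, minus strand: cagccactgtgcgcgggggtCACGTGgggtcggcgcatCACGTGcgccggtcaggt
Atp6v1a, chr16:44139365-44139410, minus strand: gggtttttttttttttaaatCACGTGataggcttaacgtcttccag
Lamp1 carried 4 E-boxes within its stretch, Mcoln1, Cln3, Gla and Atp6v0b carried 2 each, and the others carried 1. The motif of Atp6v0d1 lay across the start site and that of Atp6v0e past it. The match is a description of letters and shows no binding.

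Measured per kilobase of annotated exon (RPKM, reads scaled to depth and to the union of a gene's exons), the set spanned a wide range in ResKCs of SD-fed mice at 24 weeks. Prosaposin, the precursor of the saposins that present sphingolipids to their hydrolases, stood highest at 2050 ± 285 RPKM (mean ± SD, n = 6). Progranulin (Grn, 1302 ± 235) and legumain (Lgmn, 1285 ± 159), an asparaginyl endopeptidase, followed and did not differ beyond their spread. Cd68, the macrophage sialomucin of the lysosomal membrane, reached 1165 ± 141 RPKM and Lamp1, the main membrane glycoprotein, 885 ± 57.8 RPKM. At the low end lay Npc1 (4.66 ± 0.86 RPKM) and Galc (3.56 ± 0.38 RPKM). The 49 genes together held 3.35% ± 0.22 of all counts in these cells, and Psap alone supplied 15.8% of their counts.

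The libraries must be described before the comparisons. Totals ran from 11568590 to 15163845 counts, so that 3 counts equal 0.198 to 0.259 CPM. No pair of libraries was identical. File headers name the alignments in 2 ways, here called naming schemes, and what they stand for is not stated. The second scheme covers 13 of the 35 libraries, namely 4 of 7 SD ResKC libraries at 12 weeks and 3 each of the WD ResKC, moKC and CLEC4F- groups at 24 weeks. The lysosomal genes moved with it. In the CLEC4F- group the 3 libraries of the second scheme lay above the 3 of the first for 29 of 49 lysosomal genes and below for 3, against 10.5% above and 10.3% below over all genes tested. In moKCs this held for 25 and 0 of the 49, against 14.8% and 14.9% of all genes. The count was 7 and 0 in WD ResKCs at 24 weeks, against 6.10% and 5.69% of all genes, and also 7 and 0 in SD ResKCs at 12 weeks, against 5.34% and 5.60%. Comparisons are therefore given within a scheme as well.

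The sorted identities were visible in the transcripts. Clec4f, which encodes the gating lectin, was at 11160 to 15563 CPM in WD ResKCs, 7317 to 11605 CPM in moKCs and 294 to 5482 CPM in CLEC4F- macrophages. Timd4 was at 546 to 884 CPM in WD ResKCs and at 14.6 CPM or less in every CLEC4F- library. The 8 resident Kupffer cell markers summed to 1327 to 12327 CPM in the CLEC4F- libraries, with replicate 4 highest. Spp1, which encodes osteopontin, was at 205 to 597 CPM in CLEC4F- macrophages and at 45.1 CPM or less in WD ResKCs. The 10 hepatocyte markers were all detected and summed to 1002 to 3457 CPM in WD ResKCs and 801 to 3186 CPM in CLEC4F- macrophages. Markers of T and NK cells summed to at most 13.6 CPM and of neutrophils to at most 13.2 CPM in any library. Markers of B cells summed to 28.2 to 163 CPM in CLEC4F- macrophages and 9.85 to 28.4 CPM in WD ResKCs at 24 weeks.

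**Figure D1:**
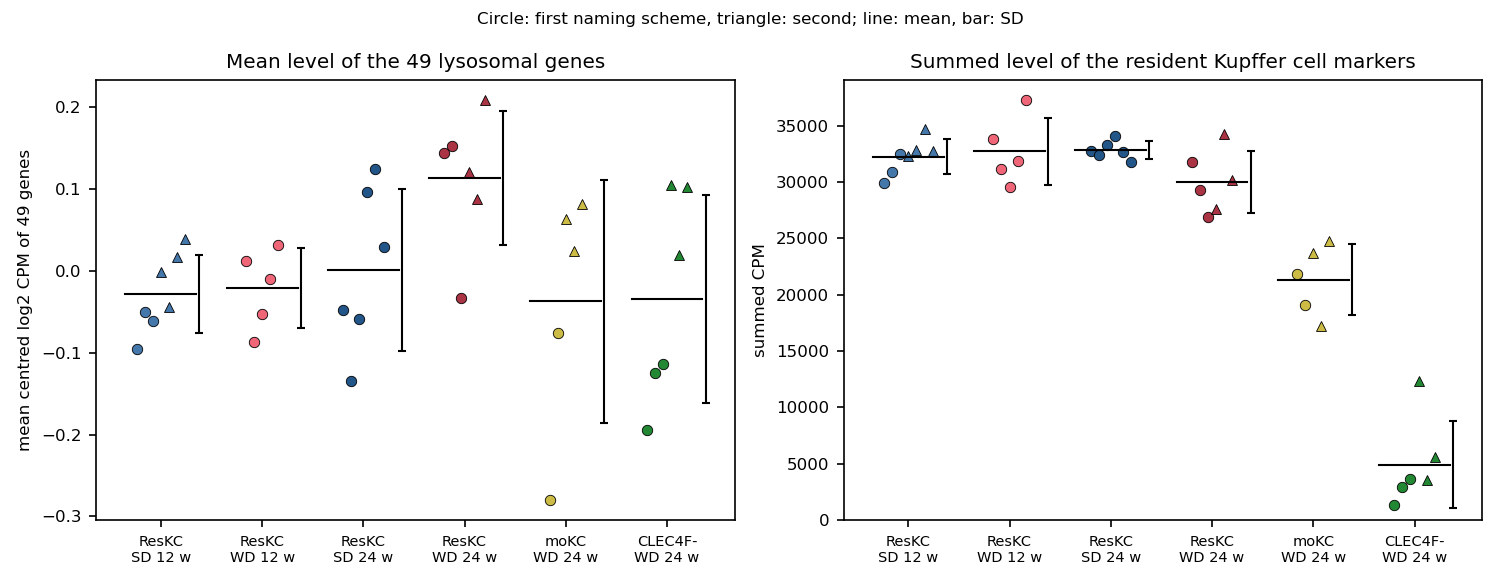
Left, the mean over 49 lysosomal genes of log2 CPM centred on the mean of all libraries; right, the summed CPM of 8 resident Kupffer cell markers. Each point is a library, circles and triangles mark the 2 naming schemes, lines are means and bars SDs; moKC replicate 1 lies lowest at -0.28 on the left, and CLEC4F- replicate 4 lies highest of its group at 12327 CPM on the right.

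The first comparison asked what WD did to ResKCs after 24 weeks. Of the 49 lysosomal genes, 6 rose and 2 fell, and the other 41 did not pass the test (edgeR quasi-likelihood test, adjusted p under 0.05). Over all genes tested, 4.84% rose and 3.87% fell, so that the share of lysosomal genes that fell was near the background while 12.2% of them rose. Their median log2 fold change was 0.09, and the median of all genes was 0.004. The change was thus carried by a few genes, and the plot of fold changes shows most members close to zero.

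Mfsd12 (chr10:81357491-81366225, GRCm38), a lysosomal membrane protein needed for cysteine import, rose most. It lay at 19.5, 24.1 and 27.3 CPM (lowest, median and highest) in SD ResKCs and at 47.1, 57.1 and 71.8 CPM in WD ResKCs at 24 weeks, without overlap. The log2 fold change was 1.32 ± 0.13 (SE, adjusted p = 8.79e-08), a 2.49-fold rise.
Gla (chrX:134588149-134601125), the alpha-galactosidase that cleaves globotriaosylceramide, came next. It ran from 13.2 over 18.4 to 24.6 CPM in SD and from 28.5 over 39.9 to 53.8 CPM in WD ResKCs, again without overlap. Its log2 fold change was 1.07 ± 0.19 (edgeR, adjusted p = 0.000541). Both genes stayed past the threshold in every alternative fit and with any single library left out.
Atp6v0a1, the V0 subunit of the proton pump that anchors it to a membrane, lay at 65.3, 74.4 and 115.7 CPM in SD and at 108, 113 and 156 CPM in WD ResKCs. Replicate 6 of the SD group reached into the WD range. The log2 fold change was 0.61 ± 0.13 (edgeR, adjusted p = 0.0047).

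Gusb, the beta-glucuronidase, rose by a log2 fold change of 0.49 ± 0.11 (edgeR, adjusted p = 0.00582), from a median of 241 to 338 CPM. Psap, the most abundant member, ran from 4701 over 5436 to 6719 CPM in SD and from 6376 over 7311 to 8049 CPM in WD ResKCs, with overlap. Its log2 fold change was 0.36 ± 0.11 (edgeR, adjusted p = 0.0338). Atp6v1c1, a V1 subunit, rose by 0.29 ± 0.09 on the log2 scale (edgeR, adjusted p = 0.0442). These last calls were close to the threshold: Psap lost its call with 8 of 12 single libraries left out, and Atp6v1c1 with 7.

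The 2 genes that fell did so by little, though their groups did not overlap. Atp6v0e, a small V0 subunit, lay at 289.5, 320.1 and 369 CPM in SD and at 236, 276 and 288.5 CPM in WD ResKCs. Its log2 fold change was -0.27 ± 0.07 (edgeR, adjusted p = 0.0194). Lamp2, the membrane glycoprotein needed for fusion with autophagosomes, ran from 1164 over 1230.5 to 1369 CPM in SD and from 982 over 1082 to 1147 CPM in WD ResKCs. Its log2 fold change was -0.21 ± 0.06 (edgeR, adjusted p = 0.0356). Lamp1, its paralog, differed by -0.01 (95% interval -0.17 to 0.15) and Cd68 by 0.10 (-0.06 to 0.25), and neither passed. Both calls were lost without SD replicate 4 or WD replicate 3, and that of Lamp2 also without SD replicate 5 or 6 or WD replicate 4 or 5. The proton pump as a whole showed no common direction, with 2 of 15 genes higher, 1 lower and a median of 0.01. Over all genes 4.84% rose and 3.87% fell.

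The lipid route that a cholesterol-rich diet loads was measured by Lipa, the acid lipase that hydrolyses cholesteryl esters, and by Npc1 and Npc2, which carry the freed cholesterol out. Lipa ran from 1036 over 1218 to 1442 CPM in SD and from 1145 over 1401 to 1469.6 CPM in WD ResKCs. Its log2 difference of 0.13 had an interval of -0.08 to 0.34. Npc1 differed by 0.21 (-0.04 to 0.45) and Npc2 by -0.13 (-0.27 to 0.01) on the log2 scale, and none of the 3 genes passed the test.

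The 3 transcription factors did not pass either. Tfeb lay at 47.9, 58.5 and 62.5 CPM in SD and at 60.1, 61.8 and 70.2 CPM in WD ResKCs, a log2 difference of 0.14 (-0.04 to 0.32). Tfe3 differed by 0.07 (-0.09 to 0.23). Mitf ran from 35.3 over 41.2 to 46.3 CPM in SD and from 42.9 over 48.9 to 63.5 CPM in WD ResKCs, and its difference of 0.30 ± 0.13 had an adjusted p of 0.123 in edgeR.

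Immediate-early and heat-shock genes, which cell isolation can induce, moved with diet at 24 weeks. The mean centred log2 CPM of 10 of them was 0.78 ± 0.96 (SD) in SD and -0.95 ± 0.80 in WD ResKCs, and with this score in the fit 2 lysosomal genes rose, Mfsd12 and Gla, instead of 6, and 242 instead of 650 of all genes. The fold changes moved less than the calls: Atp6v0a1 was at 0.54 (edgeR, adjusted p = 0.051), Gusb at 0.40, Psap at 0.34 and Atp6v1c1 at 0.25 on the log2 scale. All SD libraries at 24 weeks belong to the first naming scheme. Within that scheme, 3 WD against 6 SD libraries, 3 lysosomal genes rose (Mfsd12, Gla and Atp6v0a1) and 0 fell. Over all 13421 genes 277 rose and 224 fell in this fit. Markers of other cells moved with diet as well. Between SD and WD ResKCs at 24 weeks, the summed CPM went from 54.7 to 158 down to 28.3 to 79.7 for 5 stellate cell markers, from 701 to 1573 down to 475 to 896 for 6 endothelial markers, and from 4.97 to 18.1 up to 13.6 to 79.8 for 5 markers of CLEC4F- macrophages. For 4 B cell markers the summed CPM went from 20.4 to 55.4 down to 9.85 to 28.4. The ranges overlapped in each list, and the part of these and of the immediate-early genes in the lysosomal values was not tested further. Scaling by library size alone raised the share of higher calls over all genes from 55.6% to 77.0%, with 9 lysosomal genes higher and 1 lower. Since total RNA of a sorted pool was read, fewer cells of a kind and less RNA per cell cannot be told apart here or in the comparisons that follow.

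**Figure D2:**
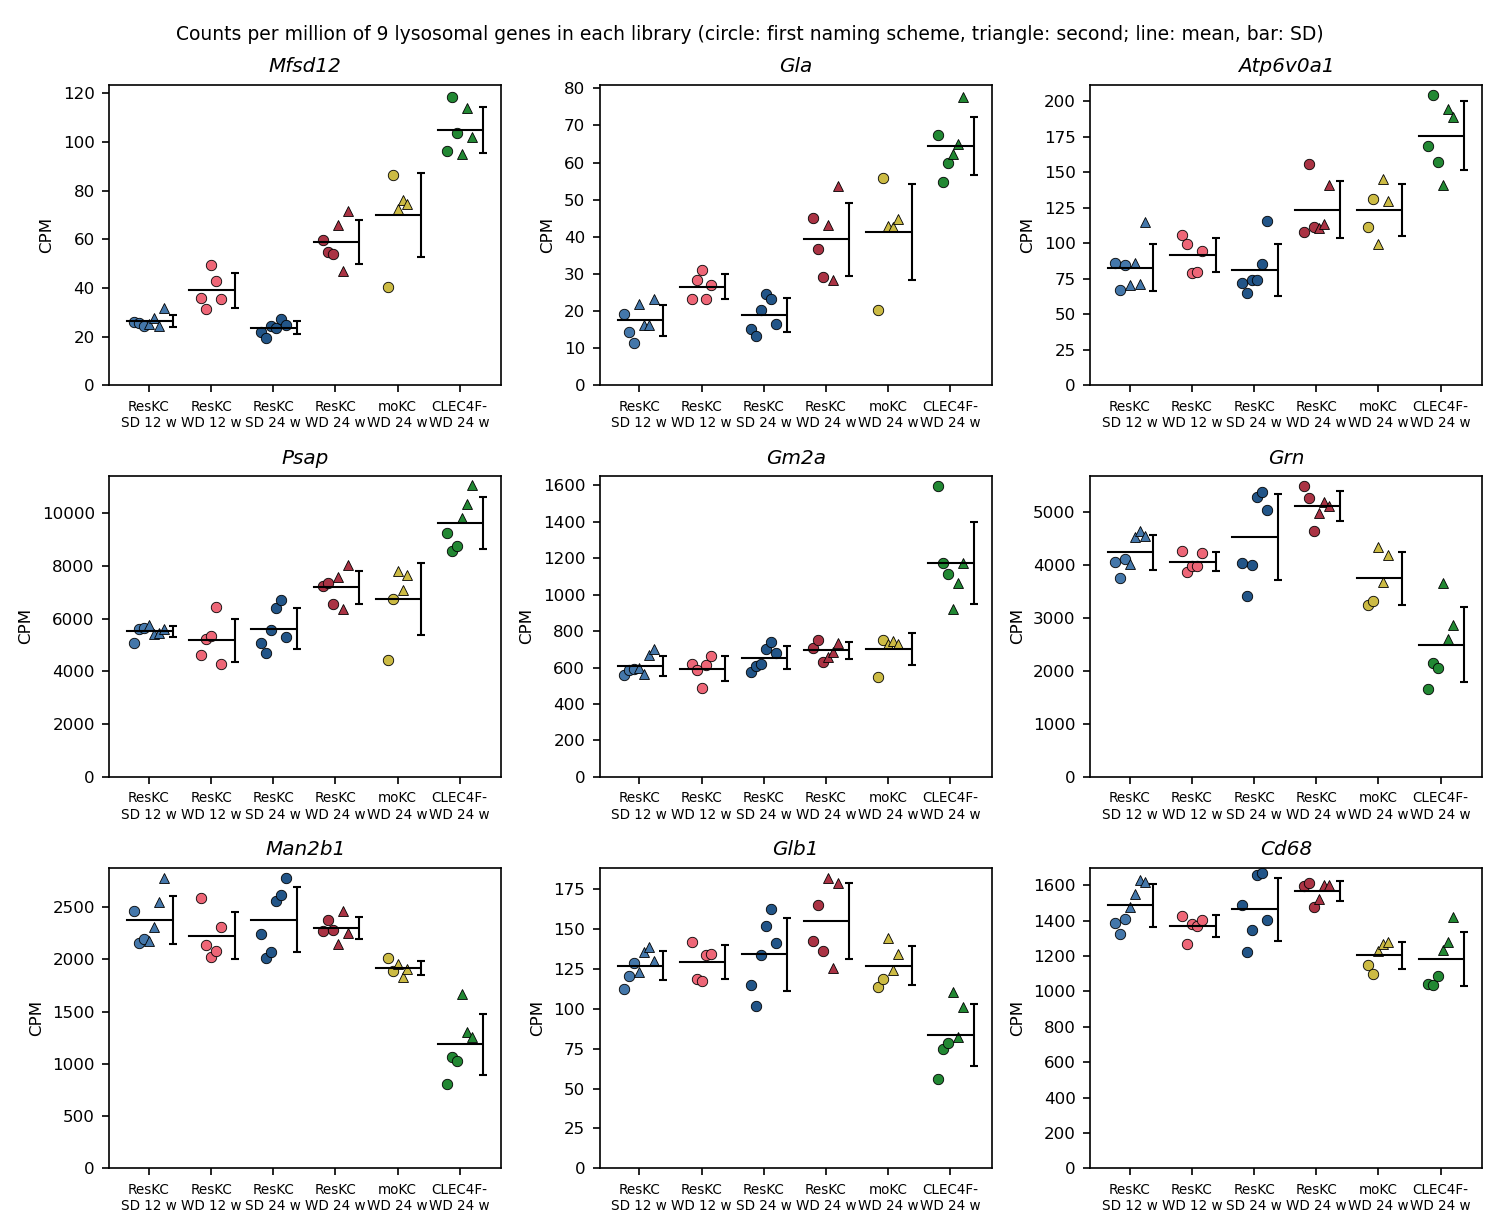
CPM of 9 lysosomal genes in each library, by group, with the y axis from 0; circles and triangles mark the 2 naming schemes, lines are means and bars SDs. Mfsd12 and Gla lie higher in WD than in SD ResKCs at 24 weeks without overlap, and Grn, Man2b1 and Glb1 lie lowest in CLEC4F- macrophages.

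At 12 weeks of diet, 0 of the 49 lysosomal genes rose and 0 fell, against 0.0149% and 0.0224% of all genes. An unadjusted p under 0.05 was reached by 5 of the 49 (10.2%), near the 8.73% of all genes. Within the first naming scheme, 0 rose and 0 fell, while 12 of all genes rose and 0 fell. Mfsd12 stood at 35.7, 31.5, 49.5, 42.9 and 35.5 CPM in the 5 WD libraries and at 24.2, 25.6 and 31.7 CPM in the SD libraries. All but the second of the WD libraries lay above the highest SD library. The log2 difference was 0.57 ± 0.13 (edgeR, adjusted p = 0.0939). Gla stood at 23.2, 28.3, 31.1, 23.3 and 27.1 CPM with WD and at 11.5, 16.2 and 23.4 CPM with SD, a log2 difference of 0.60 ± 0.19 that did not pass (edgeR, adjusted p = 0.344). By DESeq2, and without SD replicate 7, Mfsd12 rose. Over all genes 23 rose and 21 fell by DESeq2, and 71 and 13 without that library, in place of 2 and 3.

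The diet effects at 12 and 24 weeks were compared by their difference. For no lysosomal gene did it pass, higher or lower, while 0.0671% and 0.216% of all genes did. For Mfsd12 the effect was larger at 24 weeks by 0.75 on the log2 scale (95% interval 0.38 to 1.13, edgeR adjusted p = 0.063). It passed without SD or WD replicate 5 of the 24-week groups. Over all genes those fits called 17 higher and 40 lower, and 24 and 55, in place of 9 and 29. An unadjusted p under 0.05 was reached by 14 of the 49 (28.6%), against 14.1% of all genes. Within the first naming scheme 0 of the 49 and 0 of all genes passed. With library size alone Mfsd12 passed too, and the share of higher calls over all genes was 64.1% in place of 23.7%. Between 12 and 24 weeks, 0 lysosomal genes changed in SD ResKCs, where 0% of all genes rose and 0% fell, although 1208 of them had an unadjusted p under 0.05. Within the first naming scheme 0 lysosomal genes and 0 of all genes changed there too. In WD ResKCs 3 rose and 0 fell, against 1.53% and 1.73% of all genes. These were Mfsd12 (log2 fold change 0.59 ± 0.13, edgeR adjusted p = 0.0168), Psap (0.48 ± 0.11, adjusted p = 0.0211) and Gusb (0.48 ± 0.12, adjusted p = 0.023). None of the 3 passed without replicate 5 of the 12-week WD group, or within the first naming scheme, to which all 12-week WD libraries belong. Without that library 67 of all genes rose and 59 fell, and within that scheme 6 rose and 15 fell. With library size alone 6 rose, and the share of higher calls over all genes was 65.3% in place of 47.0%.

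The second question was how macrophages recruited under WD differ from ResKCs after the same diet. In CLEC4F- macrophages 20 lysosomal genes were lower and 8 higher than in WD ResKCs, and 21 did not pass. Over all genes tested, 17% were lower and 16.1% higher. The share of lysosomal genes that was higher, 16.3%, equalled the background, and the share that was lower was 40.8%. Their median log2 difference was -0.15, against 0.02 over all genes. The groups did not overlap for 17 of the 49 (34.7%), against 15.99% of all genes.

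The degradative enzymes were mostly lower. Progranulin, whose granulin fragments serve hydrolase function, showed the largest difference, with Grn (chr11:102430315-102437048) at 4639.9, 5145 and 5484 CPM in WD ResKCs and at 1652, 2378 and 3649.5 CPM in CLEC4F- macrophages. The log2 difference was -1.03 ± 0.13 (edgeR, adjusted p = 8.05e-08), or 0.488-fold. Legumain and tripeptidyl peptidase 1 were lower too, at -0.69 ± 0.10 and -0.63 ± 0.09 on the log2 scale. All 3 genes of this role thus lay lower, and none overlapped between the groups.
Among the 9 glycosidases, 5 were lower and 1 higher, against 17% and 16.1% of all genes. Man2b1 (chr8:85083270-85098282), the lysosomal alpha-mannosidase, ran from 2148 over 2279.9 to 2466 CPM in WD ResKCs and from 812 over 1159.9 to 1667 CPM in CLEC4F- macrophages, a log2 difference of -0.95 ± 0.11 (edgeR, adjusted p = 1.98e-08). Glb1 (chr9:114401076-114474898), the beta-galactosidase that starts GM1 breakdown, ran from 126 over 154 to 182 CPM and from 55.9 over 80.3 to 110.3 CPM, a difference of -0.89 ± 0.12 (edgeR, adjusted p = 5.62e-07). Gaa, the acid alpha-glucosidase of glycogen, Neu1, the sialidase, and Naglu, of heparan sulphate, were lower by -0.60, -0.44 and -0.30 on the log2 scale. Hexa, Gusb and Manba did not pass.

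Some genes of sphingolipid turnover went the other way. Gm2a (chr11:55098115-55113029), the activator that lifts GM2 ganglioside to its hexosaminidase, lay at 630.0, 696 and 752 CPM in WD ResKCs and at 921, 1143 and 1596 CPM in CLEC4F- macrophages, without overlap. Its log2 difference was 0.76 ± 0.10 (edgeR, adjusted p = 2.28e-07). Psap ran from 6376 over 7311 to 8049 CPM in WD ResKCs and from 8571 over 9534 to 11077 CPM in CLEC4F- macrophages, likewise without overlap, at 0.42 ± 0.11 (edgeR, adjusted p = 0.00238). Galc, the galactocerebrosidase, was higher by 0.37 ± 0.11, but passed within neither naming scheme. Psap made up 29.4% of the counts of the 49 genes in CLEC4F- macrophages and 19.0% in WD ResKCs. The 49 genes together held 3.57% ± 0.28 of all counts in CLEC4F- macrophages and 3.78% ± 0.15 in WD ResKCs, and 3.28% ± 0.36 and 3.78% ± 0.18 after TMM scaling.
Smpd1, the acid sphingomyelinase, Asah1, the acid ceramidase, and Lipa were lower, at -0.62, -0.31 and -0.29 on the log2 scale. Lipa ran from 933 over 1081 to 1294 CPM in CLEC4F- macrophages and overlapped the WD ResKCs (edgeR, adjusted p = 0.0274). Its call was lost with 6 of 12 single libraries left out and within the second naming scheme, where the difference was -0.07 (edgeR, adjusted p = 0.77). Npc1 (-0.06, 95% interval -0.31 to 0.19) and Npc2 (0.12, -0.02 to 0.26) did not pass. Of the 9 lipid genes 3 were higher and 3 lower, against 16.1% and 17% of all genes, with a median of 0.01.

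At the lysosomal membrane 5 of 10 genes were lower and 1 higher, against 17% and 16.1% of all genes. Scarb2 (LIMP-2), the receptor that escorts glucocerebrosidase, ran from 491 over 519.6 to 545 CPM in WD ResKCs and from 209.9 over 305 to 402 CPM in CLEC4F- macrophages, a log2 difference of -0.79 ± 0.09 (edgeR, adjusted p = 2.73e-08). Laptm4a was lower by -0.57 ± 0.09. Cd68 lay at 1478, 1597 and 1615 CPM in WD ResKCs and at 1038, 1159 and 1419 CPM in CLEC4F- macrophages, without overlap, at -0.41 ± 0.08 (edgeR, adjusted p = 7.55e-05).
Lamp1 ran from 2120.3 over 2391 to 2462 CPM and from 1466 over 1804 to 2187 CPM, with overlap, at -0.38 ± 0.08 (edgeR, adjusted p = 0.000187), and Lamp2 was lower by -0.18 ± 0.06. The call of Lamp2 was lost with 6 of 12 single libraries left out, and its difference within the second naming scheme was -0.05 (edgeR, adjusted p = 0.78). The exception was Mfsd12, at 95.01, 103 and 119 CPM in CLEC4F- macrophages against 47.1, 57.1 and 71.8 CPM in WD ResKCs. It was higher by 0.83 ± 0.13 on the log2 scale (edgeR, adjusted p = 3.43e-06). Gla shared this pattern, with 54.8, 63.7 and 77.7 CPM in CLEC4F- macrophages and a log2 difference of 0.71 ± 0.19 (edgeR, adjusted p = 0.00297).

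Of the 15 proton pump genes, 3 were lower (Atp6ap1 at -0.36, Atp6v1f at -0.28 and Atp6v1e1 at -0.25), 2 were higher (Atp6v0a1 at 0.51 and Atp6v1c1 at 0.45), and 10 did not pass. These shares were near the 17% lower and 16.1% higher of all genes. The median over the 15 was -0.09, against -0.22 over the other 34 genes, of which 17 were lower and 6 higher. No test of the difference between these lists was made. Atp6v0a1 lay at 141, 179 and 205 CPM in CLEC4F- macrophages and at 108, 113 and 156 CPM in WD ResKCs, with overlap. Atp6v1h, a regulatory V1 subunit, had the most even level of all members, its highest group mean being 1.05 times its lowest.

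The 3 MiT/TFE factors split. Tfeb lay at 60.9, 87.3 and 97.9 CPM in CLEC4F- macrophages and at 60.1, 61.8 and 70.2 CPM in WD ResKCs, a log2 difference of 0.41 ± 0.09 (edgeR, adjusted p = 0.000298). Only replicate 4 of the CLEC4F- group fell within the ResKC range. Tfe3 was lower without overlap, at 118, 135 and 144 CPM against 158, 179 and 191 CPM, by -0.40 ± 0.08 (edgeR, adjusted p = 0.000108). Mitf did not pass (-0.25, 95% interval -0.50 to 0.01). The E-box promoters shown above did not follow 1 direction: of the 43 genes with a window, it was held by 1 of 7 that were higher, 5 of 19 that were lower and 6 of 17 that did not pass.

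**Figure D3:**
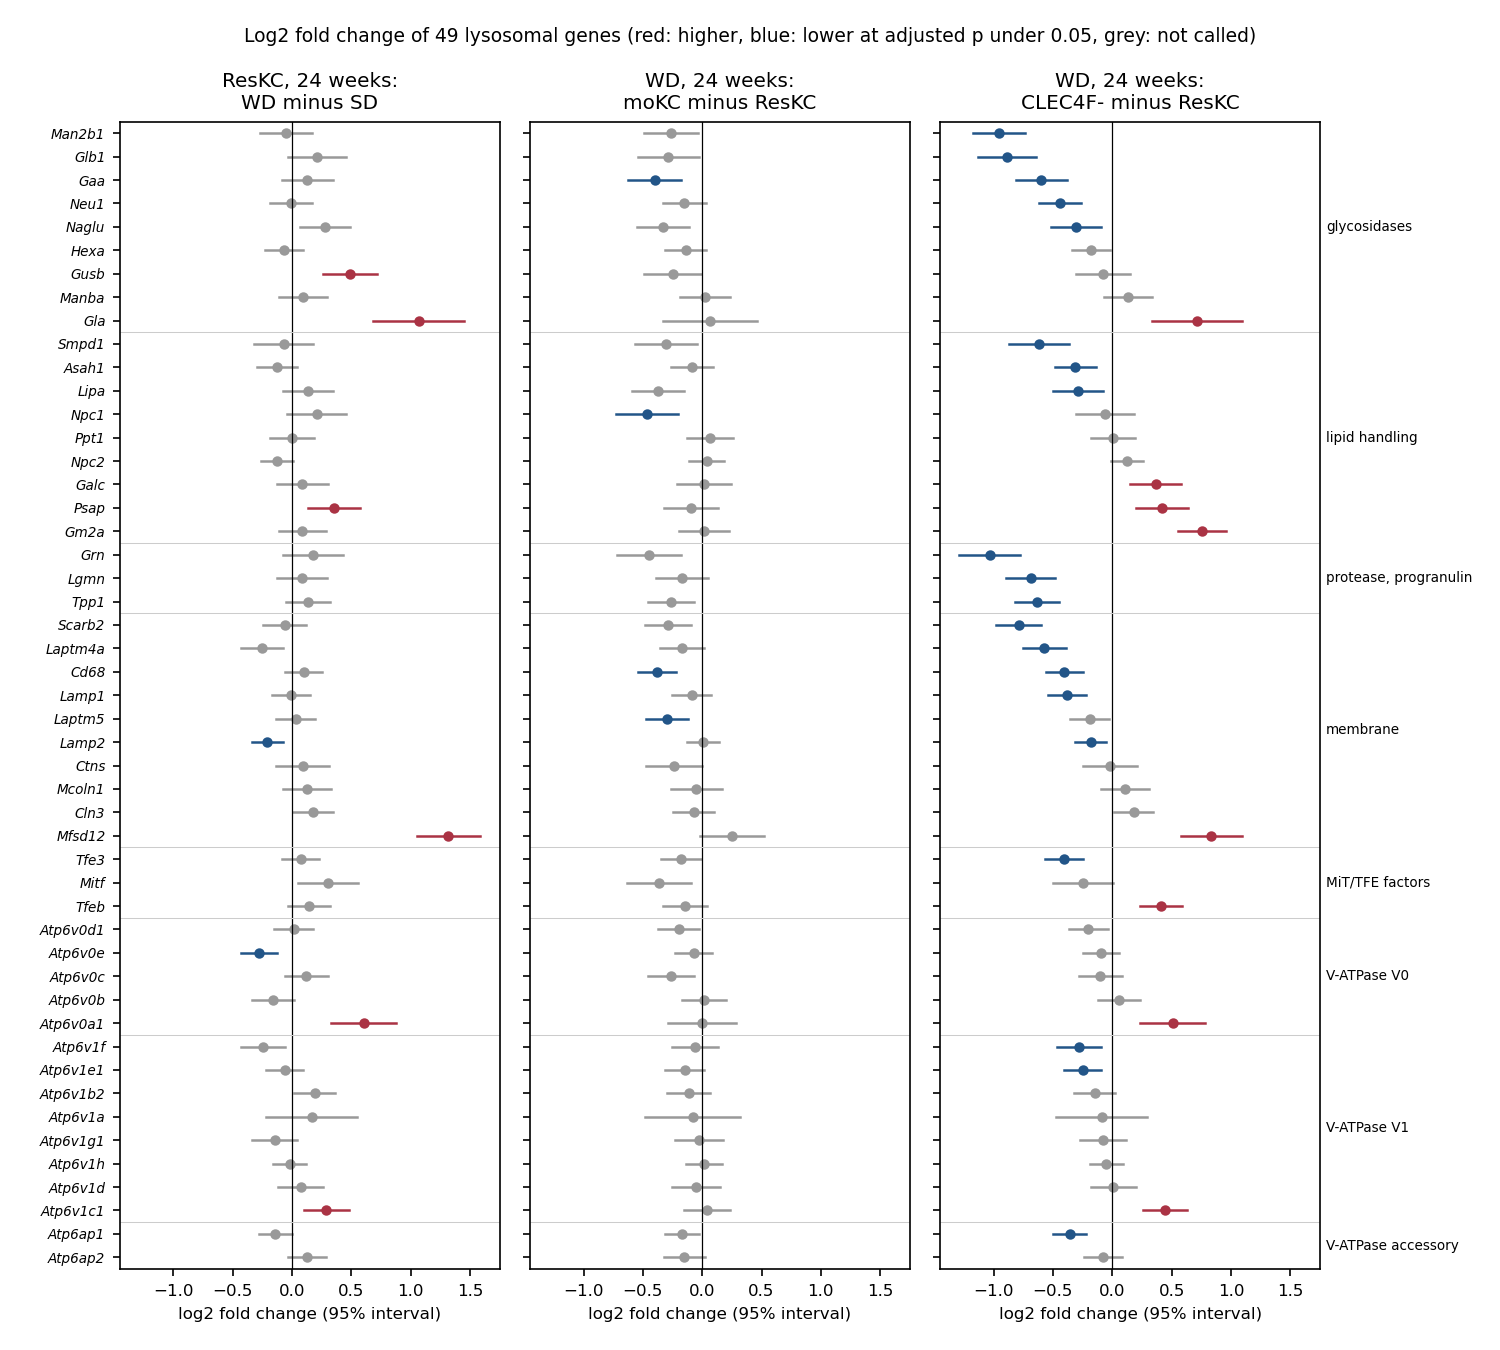
Log2 fold change of each of 49 lysosomal genes with its 95% interval for WD against SD ResKCs at 24 weeks, moKCs against WD ResKCs and CLEC4F- macrophages against WD ResKCs, ordered by role. Red marks higher and blue lower at an adjusted p under 0.05, grey marks genes that did not pass; 6 and 2, 0 and 4, and 8 and 20 genes are coloured red and blue in the 3 panels.

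Values that moved with this comparison are given beside it. The 5 general macrophage markers, of which Cd68 is one, summed to 5562 to 9622 CPM in CLEC4F- macrophages and 11966 to 15096 CPM in WD ResKCs. Replicate 4 of the CLEC4F- group, with the most Kupffer cell transcripts, was also the highest of its group for Grn, Man2b1, Glb1, Lgmn and Lamp1 and the lowest for Mfsd12, Gm2a, Tfeb and Atp6v0a1. Without it 22 lysosomal genes were lower and 8 higher, and Scarb2 was lower by -0.89. Over all genes 2412 were then lower and 2202 higher, in place of 2278 and 2155. Within the first naming scheme 18 were lower and 6 higher, and within the second 12 and 5. Over all 13421 genes these fits called 1834 lower and 1786 higher in the first scheme, and 1016 and 654 in the second. The log2 difference of Grn was -1.38 in the first scheme and -0.74 in the second (edgeR, adjusted p = 7.1e-07 and 0.0012), and that of Gm2a was 0.91 and 0.60 (adjusted p = 7.7e-05 and 0.0023). Tfeb, at 0.27, did not pass within the second scheme (edgeR, adjusted p = 0.17), nor did Tfe3, Atp6ap1, Atp6v1e1 and Asah1. Psap and Gla did not pass within the first (edgeR, adjusted p = 0.13 and 0.064). Atp6v0a1, Naglu and Atp6v1f, like Galc, passed within neither scheme. The part of Kupffer cell transcripts in these values was not tested. Scaling by library size alone moved the median of all genes from 0.02 to 0.14 and the share of higher calls over all genes from 48.6% to 66.6%, with 15 lysosomal genes lower and 11 higher. The calls of Lamp2, Atp6v1f, Atp6v1e1, Naglu and Lipa were lost there.

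In moKCs fewer genes passed. Of the 49 lysosomal genes 0 were higher and 4 lower than in WD ResKCs, against 0.991% higher and 2% lower over all genes. The median log2 difference was -0.14, and 37 of 49 genes were below 0. Over all genes the median was 0.02, and 7178 of 13421 were above 0.
Cd68 stood at 1149, 1097, 1231, 1267 and 1277 CPM in the 5 moKC libraries and at 1478 CPM or more in every WD ResKC library. The log2 difference was -0.38 ± 0.08 (edgeR, adjusted p = 0.00501). Gaa stood at 190.3, 173, 187, 215 and 197 CPM in moKCs and at 213, 257 and 286 CPM in WD ResKCs, at -0.40 ± 0.11 (edgeR, adjusted p = 0.0399). The fourth moKC library reached into the ResKC range.
Npc1 stood at 27.7, 45.8, 53.8, 48.9 and 44.9 CPM in moKCs and at 51.1, 63.2 and 69.1 CPM in WD ResKCs, at -0.46 ± 0.13 (edgeR, adjusted p = 0.0399). Laptm5, a membrane protein of haematopoietic lysosomes, was lower without overlap by -0.30 ± 0.09 (edgeR, adjusted p = 0.049). Grn stood at 3238, 3309.6, 4333, 3676 and 4191 CPM, also below every WD ResKC library, but did not pass (-0.45 ± 0.13, edgeR adjusted p = 0.0581). Lamp1 (-0.09, 95% interval -0.25 to 0.07), Lamp2 (0.005, -0.13 to 0.14) and Npc2 (0.04, -0.11 to 0.18) did not pass, nor did Lipa (-0.37, adjusted p = 0.0519), Tfeb (-0.14, -0.33 to 0.04), Tfe3 (-0.18, -0.34 to -0.01) or Mitf (-0.37, -0.63 to -0.10).

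Apart from Cd68, the moKC calls were lost when single libraries were left out. Replicate 1 stood apart, with the lowest mean over the 49 genes (-0.28, against -0.08 to 0.08 in the other moKC libraries) and with Gla at 20.4 CPM against 42.6 to 55.9 CPM and Psap at 4430.1 CPM against 6729.8 to 7820.2 CPM. Without it Cd68 alone was lower and Mfsd12 was higher, while calls over all genes rose from 133 higher and 268 lower to 188 and 334. The difference between moKCs and WD ResKCs in the mean over the 49 genes then went from -0.15 to -0.09. Leaving out moKC replicate 2 or 5, or WD ResKC replicate 1, 2 or 5, also kept only Cd68 of the 4 calls. Unlike the fit without moKC replicate 1, these fits called fewer of all genes, 74 to 116 higher and 153 to 208 lower. Leaving out moKC replicate 3 or 4, or WD ResKC replicate 4 or 6, kept 2 of the 4. There 73 to 164 of all genes were higher and 159 to 271 lower. Within each naming scheme 0 lysosomal genes passed. Over all 13421 genes these fits called 37 higher and 58 lower in the first scheme, and 7 and 55 in the second. With the replicate number fitted as a block 0 of the 4 calls stayed, and 39 of all genes were higher and 82 lower.

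Between the recruited populations, CLEC4F- macrophages and moKCs, 10 lysosomal genes were higher and 9 lower in CLEC4F- macrophages, against 7.09% and 9.34% of all genes, with a median of -0.01. The lower genes were Man2b1 (-0.69), Glb1 (-0.60), Grn (-0.59), Lgmn (-0.52), Scarb2 (-0.50), Laptm4a (-0.41), Tpp1 (-0.37), Lamp1 (-0.29) and Neu1 (-0.29). All of them were also lower than in WD ResKCs, a comparison that shares the CLEC4F- libraries. The higher genes were led by Gm2a, which stood at 549, 753, 731, 745 and 729 CPM in moKCs and was higher by 0.74 ± 0.10 on the log2 scale (edgeR, adjusted p = 3.93e-06), followed by Gla (0.64), Mfsd12 (0.58) and Tfeb (0.56). Tfeb stood at 54.0, 66.1, 49.03, 60.0 and 56.7 CPM in moKCs. Without moKC replicate 1, 6 instead of 10 were higher, the calls of Gla, Galc, Npc1 and Cln3 being lost. Over all genes 703 were then higher and 1026 lower. With the compared groups fitted alone, 5 instead of 9 were lower, and the higher calls of Cln3, Galc and Npc1 were lost. Over all genes that fit called 808 higher and 803 lower, in place of 951 and 1253. With the replicate number fitted as a block 4 of the 19 calls stayed, and 350 of all genes were higher and 325 lower. Within the second naming scheme 2 were higher and 0 lower, and within the first 7 and 8. Over all 13421 genes these fits called 133 higher and 192 lower in the second scheme, and 726 and 1008 in the first. With library size alone 11 were higher and 8 lower, and the share of higher calls over all genes was 61.1% in place of 43.1%.

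**Figure D4:**
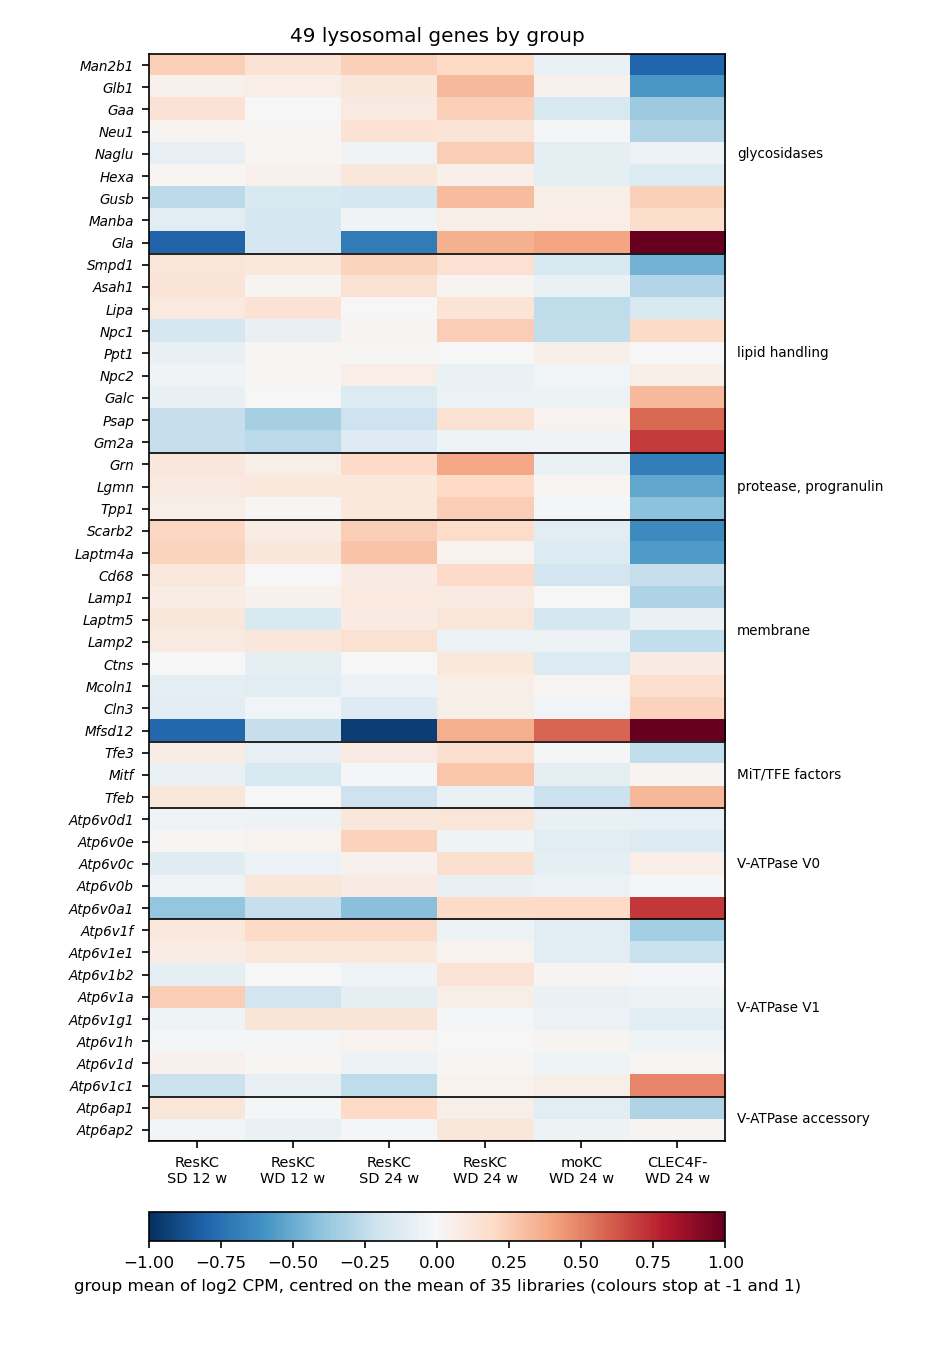
Group mean of log2 CPM of each lysosomal gene, centred on the mean of 35 libraries, with genes in rows by role and the 6 groups in columns; red is above and blue below the mean, and colours stop at -1 and 1. Mfsd12, Gla and Atp6v0a1 run from blue in SD ResKCs to red in CLEC4F- macrophages, while 23 of 49 genes have their lowest group mean in CLEC4F- macrophages.

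Across the 6 groups, Mfsd12 had the widest range, its highest group mean being 4.45 times its lowest, followed by Gla (3.68), Atp6v0a1 (2.16) and Grn (2.05). The mean of Mfsd12 was 23.6 ± 2.64 CPM in SD ResKCs at 24 weeks, 26.4 ± 2.60 in SD ResKCs at 12 weeks, 39.0 ± 7.14 in WD ResKCs at 12 weeks, 58.8 ± 8.94 in WD ResKCs at 24 weeks, 70.0 ± 17.4 in moKCs and 105 ± 9.52 in CLEC4F- macrophages. The SD groups did not differ from each other beyond their spread, nor did moKCs from WD ResKCs at 24 weeks with all libraries kept. The moKC spread depended on replicate 1, which lay far below the rest of its group for Mfsd12. Once that library was left out, Mfsd12 was called higher in moKCs than in WD ResKCs. That fit also called 188 of all genes higher, in place of 133. Of the 6 genes that rose with WD at 24 weeks, 5 were also higher in CLEC4F- macrophages than in WD ResKCs, and Gusb was not. These comparisons share the WD ResKC libraries, so the values are given side by side only. CLEC4F- macrophages had the highest group mean for 11 of the 49 genes and the lowest for 23.

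Other lysosomal genes and the systems that feed the lysosome were read from lists made beside the 49. With 24 weeks of WD, 2 of 37 further lysosomal genes (5.41%) rose in ResKCs and 2 fell, near the 4.84% and 3.87% of all genes. Gpnmb, a membrane glycoprotein of lipid-loaded macrophages, ran from 0.49 over 2.10 to 3.75 CPM in SD and from 66.6 over 117 to 494 CPM in WD ResKCs, a log2 fold change of 6.47 ± 0.84 (edgeR, adjusted p = 7.3e-06). Cd63, a tetraspanin of late endosomes, rose by 4.17 ± 0.49, from a median of 4.07 to 65.9 CPM. Smpdl3a and Scpep1 fell by 0.35 and 0.24 on the log2 scale.
Atp6v0d2, the alternative d subunit of the pump used in osteoclasts and activated macrophages, was the only one of 5 tested alternative subunits to change, rising by 4.84 ± 0.71 (edgeR, adjusted p = 4.1e-05) to 11.1, 18.7 and 73.3 CPM. Its ubiquitous counterpart Atp6v0d1 differed by 0.01. Sort1, a sorting receptor for progranulin and prosaposin, rose by 1.70 ± 0.48, the only one of 10 genes of mannose 6-phosphate and receptor sorting to do so. Of 18 genes of mTORC1 and its lysosomal anchor 0 passed, and 2 had an unadjusted p under 0.05, against 24.8% of all genes. Of 18 autophagy genes 1 rose and 1 fell (5.56% each, near the shares of all genes): Wipi2 rose by 0.24 and Map1lc3a, a light chain of autophagosomes, fell by 0.44 on the log2 scale.

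In CLEC4F- macrophages, 16 of the 37 further lysosomal genes were lower (43.2%) and 5 higher (13.5%) than in WD ResKCs, against 17% and 16.1% of all genes. Hgsnat, an acetyltransferase of heparan sulphate breakdown, was lowest at -1.87 ± 0.14, with 86.7, 113 and 158 CPM against 375, 411 and 522 CPM, and Abcd4 was lower by -1.25. Gpnmb, Cd63 and Galns were higher by 2.73, 2.32 and 0.76. Gpnmb reached 759 to 1649 CPM. Among the 10 sorting genes 3 were higher (30.0%, against 16.1% of all genes), with Sort1 at 2.62, Gnptab at 0.58 and M6pr at 0.28, and 4 were lower (40.0%, against 17%), with Igf2r, the large mannose 6-phosphate receptor, at -0.75, Gnptg at -0.59 and Lrpap1 at -0.36. Of the 18 autophagy genes 8 were lower (44.4%, against 17% of all genes) and 0 higher, among them Map1lc3a (-1.15), Optn (-1.10) and Ulk1 (-0.52). Of the 18 mTORC1 genes 3 were higher (Fnip2, Tsc1 and Lamtor4) and 2 lower (Tsc2 and Lamtor2), shares of 16.7% and 11.1% near those of all genes, and 1 of the 5 alternative pump subunits, Tcirg1, was higher by 0.37.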

How the data were processed

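Sequencing libraries (TruSeq RNA, single reads of 75 bases) were aligned by the authors with HISAT2 2.2.0 to mm10 and counted per gene with featureCounts 2.0.0; the submitters' processing notes also name SAMtools 1.10 and FastQC 0.11.9. The annotation, strand setting and treatment of multiply mapped reads are not given in the sources used here. The deposited values are raw counts per gene symbol, 1 file per library.

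Counts of 35 libraries were analysed with edgeR 4.0.16 (R 4.3.3, TMM scaling): genes above 1 CPM in at least 5 libraries were kept, 1 mean per group was fitted, and quasi-likelihood tests were adjusted by Benjamini-Hochberg over 13421 genes. A call is an adjusted p under 0.05. Standard errors are the log2 fold change divided by the root of F, and 95% intervals use the same error. Levels are TMM-scaled CPM, and RPKM divides them by the union of exons in GENCODE M21. Scores are means of centred log2 CPM with a prior count of 2, and have no test. The fit was tested on simulated data. Exons shared with another counted gene made up 12.8% of Hexa, 9.31% of Lamp1 and 7.65% of Cln3, and Atp6v0c has 2 counted pseudogenes, so these counts are less certain.

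The lysosomal genes, the other lists and the tests were chosen with earlier results of these data known. Per-library values and tests are given in full for the 3 members with the largest change in each direction in a comparison, the MiT/TFE factors, Lamp1, Lamp2, Cd68, Lipa, Npc1, Npc2 and the 3 members highest per length; from other lists, the 3 highest and 3 lowest called genes, of which 1 is not reported here. Alternatives were other scalings, filters, dispersion, covariates, sample subsets, a replicate block, limma-voom 3.58.1, DESeq2 1.42.0 and each library left out; fits within a naming scheme were added after the data were seen. Promoter sequences are from RefSeq (GRCm38.p6). Counts of all libraries were used.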

Additional observations from a re-analysis of the deposited data

Results flagged for a closer look

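Of 300 sets of libraries checked, each of the 49 lysosomal genes and their mean score in each of 6 groups, 19 held a library far from the others of its group, while chance gives about 1 in 20 such groups. Values are log2 CPM. Replicate 1 of the moKCs gave 9 of the 19 and was the lowest in each: Gla at 4.36, Gusb at 7.62, Naglu at 6.48, Galc at 5.17, Gm2a at 9.10, Psap at 12.11, Npc1 at 4.80, Mfsd12 at 5.34 and Atp6v1c1 at 6.72. Replicate 5 of the moKCs was highest for Lamp2 at 10.24.

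In SD ResKCs at 24 weeks, replicate 3 was lowest for Galc at 5.41 and highest for Ppt1 at 8.23. In WD ResKCs at 24 weeks, replicate 3 was lowest for Lgmn at 11.45, replicate 5 highest for Atp6v0c at 8.09 and replicate 6 highest for Atp6v1a at 8.84. In CLEC4F- macrophages, replicate 4 was highest for Ppt1 at 8.51 and replicate 2 lowest for Atp6v0c at 7.39. At 12 weeks, replicate 4 of the WD ResKCs was highest for Mitf at 5.71 and replicate 6 of the SD ResKCs lowest for Atp6v1a at 8.08.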

How the results depend on the processing

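Counts of lysosomal genes are given as higher and lower. For WD against SD ResKCs at 24 weeks (6 and 2), requiring a log2 fold change over 1 gave 2 and 0, the immediate-early and heat-shock covariate 2 higher, the first naming scheme alone 3 and 0, library size alone 1 lower, no filter 1 lower and the naming scheme as covariate 4 lower. Over all genes the main fit gave 650 and 519, the limit of 1 gave 319 and 131, and library size alone 1139 and 340. Without a filter these were 477 and 354, and with the scheme covariate 445 and 452. At 12 weeks (0 and 0) DESeq2 gave 1 higher, and over all genes 23 and 21 in place of 2 and 3. For the difference of the diet effects (0 and 0), library size alone, the hepatocyte covariate, the compared groups alone and DESeq2 each gave 1 higher. Over all genes the main fit gave 9 and 29. Those fits gave 25 and 14, 25 and 50, 8 and 16, and 80 and 104, in that order. For CLEC4F- macrophages against WD ResKCs (8 and 20), the limit of 1 gave 0 and 1, the second scheme 5 and 12, and library size alone moved the difference in mean score from -0.15 to -0.026. Over all genes the limit gave 810 and 589. For moKCs against WD ResKCs (0 and 4), the limit gave 0 lower, no filter 1, the immediate-early covariate 2, the scheme covariate 8, and either scheme alone 0. Over all genes the main fit gave 133 and 268, the limit 72 and 114 and no filter 90 and 193. The immediate-early covariate gave 120 and 256, and the scheme covariate 149 and 300. For CLEC4F- macrophages against moKCs (10 and 9), the limit gave 0 and 0, the second scheme 2 and 0, and the compared groups alone 5 lower. Over all genes the limit gave 364 and 314, and the compared groups alone 808 and 803. In WD ResKCs from 12 to 24 weeks (3 higher), the limit gave 0, library size alone 6, the immediate-early covariate 5, the scheme covariate 1, the first scheme 0 and DESeq2 5. Over all genes the main fit gave 206 and 232, the limit 52 and 41 and library size alone 295 and 157. The immediate-early covariate gave 238 and 256, the scheme covariate 113 and 206 and DESeq2 319 and 313. Where a value shows no cause, the cause was not tested. The one reversal was Cln3 in CLEC4F- macrophages against moKCs, at -0.0073 within the second scheme.

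Whether the replicate numbers pair the libraries is not known. In no comparison did every same-numbered pair correlate above 0.1 (mean r 0.056 for diet at 24 weeks and 0.117 for CLEC4F- against WD ResKCs), which cannot exclude pairing. For CLEC4F- against WD ResKCs 4 of 6 pairs lay above 0.1. With the replicate block the counts were 4 and 0 for diet at 24 weeks, 8 and 17 for CLEC4F- against WD ResKCs, 0 and 0 for moKCs against WD ResKCs, 1 and 3 for CLEC4F- against moKCs and 2 and 0 in WD ResKCs over time. Over all genes the block gave 533 and 394, 2024 and 1990, 39 and 82, 350 and 325, and 70 and 49, in that order.

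Leaving out 1 library gave 4 to 6 higher and 0 to 2 lower for diet at 24 weeks, 0 to 1 higher at 12 weeks, 0 to 1 higher for the difference of the diet effects, 8 to 8 higher and 15 to 22 lower for CLEC4F- against WD ResKCs, 0 to 1 higher and 1 to 4 lower for moKCs against WD ResKCs, 6 to 10 higher and 7 to 12 lower for CLEC4F- against moKCs, and 0 to 3 higher in WD ResKCs over time. Over all genes these fits gave 463 to 646 higher and 364 to 562 lower for diet at 24 weeks. At 12 weeks they gave 0 to 71 and 0 to 13. The difference of the diet effects had 1 to 25 and 7 to 73. CLEC4F- against WD ResKCs had 1869 to 2202 and 1941 to 2412. For moKCs against WD ResKCs they gave 73 to 188 and 153 to 334. CLEC4F- against moKCs had 687 to 1102 and 947 to 1489. WD ResKCs over time had 67 to 224 and 59 to 287. No lysosomal gene is near the detection limit, so counting error is small beside the spread between libraries.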
